A study of Mus musculus with 6 samples.

Results

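The genes described here encode collagens, laminins and the proteins built around them in extracellular matrix and basement membrane. The rule that chose them uses gene symbols and no measured value, and takes every collagen chain (Col, a number, a and a number), every laminin chain (Lama, Lamb or Lamc and a number) and 20 named genes for basement membrane linkers, matricellular and elastic fibre proteins, collagen-modifying and crosslinking enzymes and the collagen chaperone. The rule found 70 of the 20654 genes in the count table, and 27 of them had enough counts for a test of genotype. RNA-seq was performed on muscle satellite cells (MuSCs) from C57BL/6 mice, the resident stem cells of skeletal muscle, with 3 wild type libraries and 3 libraries labelled *Piezo1* cKO, to ask which transcripts differ when PIEZO1, a mechanosensitive ion channel, is lost. In the cKO, floxed *Piezo1* alleles are removed by a tamoxifen-inducible Cre expressed from *Pax7* (*Piezo1* flox/flox; *Pax7* CreERT2/+), so the deletion is limited to cells that express *Pax7*. The labels call the control group wild type, while the study names its RNA-seq controls as *Pax7* CreERT2/+, so that by that account both groups carried Cre, and the ages of the mice are not given in the sources used here. Cells of both groups were sorted as positive for VCAM1 and negative for CD31, CD45 and Sca1, then cultured to day 3 on Matrigel in medium with 30% serum, chick embryo extract, 10 ng/mL fibroblast growth factor and 1 µM 4-hydroxytamoxifen. Controls were therefore exposed to the inducing drug as well. Nothing in the labels ties a library to a particular animal, so p-values measure the spread between these 3 libraries of each group.

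In muscle, each MuSC lies between the myofibre and a basement membrane made of a laminin network and a type IV collagen network, which nidogen and heparan sulphate proteoglycans such as perlecan and agrin hold together. Fibrillar collagens (types I, III and V) form the interstitial matrix outside it and are made mainly by fibroblasts, although cultured myoblasts also express them. Collagen chains are hydroxylated by prolyl 4-hydroxylases and lysyl hydroxylases and folded with the chaperone HSP47 (*Serpinh1*) in the endoplasmic reticulum before secretion, after which lysyl oxidases crosslink them. Matrigel is itself a basement membrane extract, and as protein it adds nothing to RNA counts.

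A single member of the set was called between the groups, *Col18a1*, and it was higher in the libraries labelled *Piezo1* cKO. *Col18a1* encodes the chain of collagen XVIII, a basement membrane collagen that carries heparan sulphate chains and whose C-terminal fragment is endostatin. The gene lies on the minus strand of chromosome 10 from 77052178 to 77166548 (GRCm38). RefSeq gives it 2 start sites 52825 bases apart, and the sequence before the distal one is shown because it is the regulatory sequence nearest to the called gene that overlaps no annotated exon. It comprises 232 bases at chr10:77166549-77166780 (GRCm38.p6, minus strand), which end 19 bases before the start site. Capitals mark matches to the GC box GGGCGG, read on the opposite strand as CCGCCC, and to the CCAAT box, read on the opposite strand as ATTGG.
*Col18a1* upstream sequence: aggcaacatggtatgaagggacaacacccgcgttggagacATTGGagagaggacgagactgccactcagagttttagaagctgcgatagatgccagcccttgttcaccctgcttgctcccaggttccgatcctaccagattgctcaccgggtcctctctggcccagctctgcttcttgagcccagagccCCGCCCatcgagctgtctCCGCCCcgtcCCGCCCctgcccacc
The window holds 3 GC boxes, all within its last stretch before the start, and 1 CCAAT box, with a GC content of 60.8%. At least 1 GC box was found in 30.1% and a CCAAT box in 32.4% of the 32851 promoters in the table, searched on both strands over the same window. The TATA box TATAAA had no match in this window and occurs in 11.9% of promoters. The E-box CANNTG, to which myogenic factors bind among others, also had none and occurs in 63.8%. Neither did the AP-1 motif TGANTCA, found in 6.39%, nor the TEAD motif GGAATG, found in 11.9%. Counts were taken near the 3' ends of transcripts and do not tell which start site was used.

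The libraries held 740936, 931168 and 891531 counts of unique molecular identifiers in wild type 1, 2 and 3, and 810096, 726378 and 769295 in cKO 1, 2 and 3. Together the 70 genes took between 0.340% and 0.441% of all counts. Levels are given as CPM, the counts per 1000000 of a library's TMM-normalised size, and at this depth a gene with 3 counts stood at 3.35 to 4.31 CPM. Since counts come from transcript ends and depth is low, a count shows how precisely a gene was measured, and levels were not compared between genes. *Piezo1* itself had 11, 5 and 6 counts in wild type and 7, 12 and 9 in the libraries labelled cKO, with means of 9.49 ± 5.53 and 12.2 ± 3.50 CPM (SD, n = 3 each). Its log2 fold change was 0.42 (SE 0.46, 95% interval −0.49 to 1.33, edgeR adjusted p = 0.791). The mean level of the targeted gene was thus not lower in the libraries labelled cKO, although the interval includes lower levels. Every direction below rests on the labels. Exons of *Piezo1* overlap those of *Ctu2*, a protein-coding gene on the opposite strand. The strand setting is not given in the sources used here, and whether *Ctu2* reads entered these counts was not tested. Deletion of some exons need not remove the 3' end that this assay counts.

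Values of the libraries and of marker genes that bear on the reading of the matrix genes are given before the results. Wild type 3 had the highest level among the wild type libraries for 19 of the 27 tested members (70.4%), against 2691 of the 8551 genes tested (31.5%). The cKO libraries shared that place more evenly, with 9, 8 and 10 members each. None of 9 tested myogenic markers, led in counts by *Chrna1* and *Myod1*, was called by edgeR, where 0.784% of all genes were, with 2 higher and 1 lower at an unadjusted p under 0.05 (33.3%, against 11.9% of all genes). The summed level of the 10 listed markers was 4731, 3857 and 4462 CPM in wild type and 4563, 3518 and 4211 CPM in cKO, and *Myod1* stood at 1569, 1366 and 1441 CPM in wild type and 1489, 1087 and 1353 CPM in cKO (log2 fold change −0.15, edgeR adjusted p = 0.743). Genes listed as markers of fibro-adipogenic cells and fibroblasts, a cell type rich in fibrillar collagen, were lower in cKO in sum. Their summed levels were 119, 226 and 165 CPM in wild type and 71.0, 50.2 and 71.6 CPM in cKO. Which cells the *Cd34* RNA in this sum came from was not tested, so the sum does not measure fibroblast content. Most of that sum was *Cd34*, with 413 of the list's 574 counts (53, 172 and 91 against 39, 23 and 35), while *Pdgfra* had 3 to 8 counts in wild type and 1 to 3 in cKO and *Pi16* was at 0 throughout. *Cd34* was called lower by DESeq2 (adjusted p = 0.000824) and limma-voom (adjusted p = 0.00498) but not by edgeR (log2 fold change −1.59, adjusted p = 0.181), with no overlap between groups. *Ly6a*, which encodes the Sca1 antigen used for negative sorting, ran the other way without overlap, with 2, 2 and 3 counts in wild type and 5, 8 and 9 in cKO, and *Thy1* had 4 counts in all wild type libraries and 6 in all cKO libraries. The small proteoglycan decorin, *Dcn*, another of these markers, was called lower, from 25.9, 25.7 and 43.7 CPM to 10.1, 6.6 and 3.98 CPM (log2 fold change −2.17, SE 0.38, edgeR adjusted p = 0.000387). In bulk RNA, fewer cells of a type and less RNA per cell cannot be told apart, and the part of these differences in the matrix results was not tested.

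Over all genes, edgeR called 67 of 8551 (0.784%), 40 higher (0.468%) and 27 lower (0.316%) in the libraries labelled cKO. With total counts in place of TMM the split was 49 higher and 18 lower, and with cyclic loess it was 42 and 14. Of the 27 tested members, 1 was called (3.70%) and none was called lower. DESeq2 gave an adjusted p to 4007 genes and called 27 (0.674%), of which 0.299% were higher and 0.374% lower. It gave one to 13 members and called *Col18a1* alone. At an unadjusted edgeR p under 0.05, 9 members passed (33.3%), 8 higher and 1 lower, against 11.9% of all genes (6.14% higher and 5.78% lower). The levels of 3 members, *Col18a1*, *Lamb2* and *Vcan*, did not overlap between the groups (11.1%), and all 3 were higher in cKO, whereas 16.5% of all genes had levels that did not overlap, 8.2% higher and 8.31% lower. The median log2 fold change was 0.04 over the tested members and 0.00 over all genes tested, and single members ranged from −0.51 to 0.85. Summed over all 70 genes, the level was 3897, 3534 and 4640 CPM in wild type and 4207, 3768 and 4127 CPM in cKO, a ratio of means of 1.00 with overlapping libraries.

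**Figure D1:**
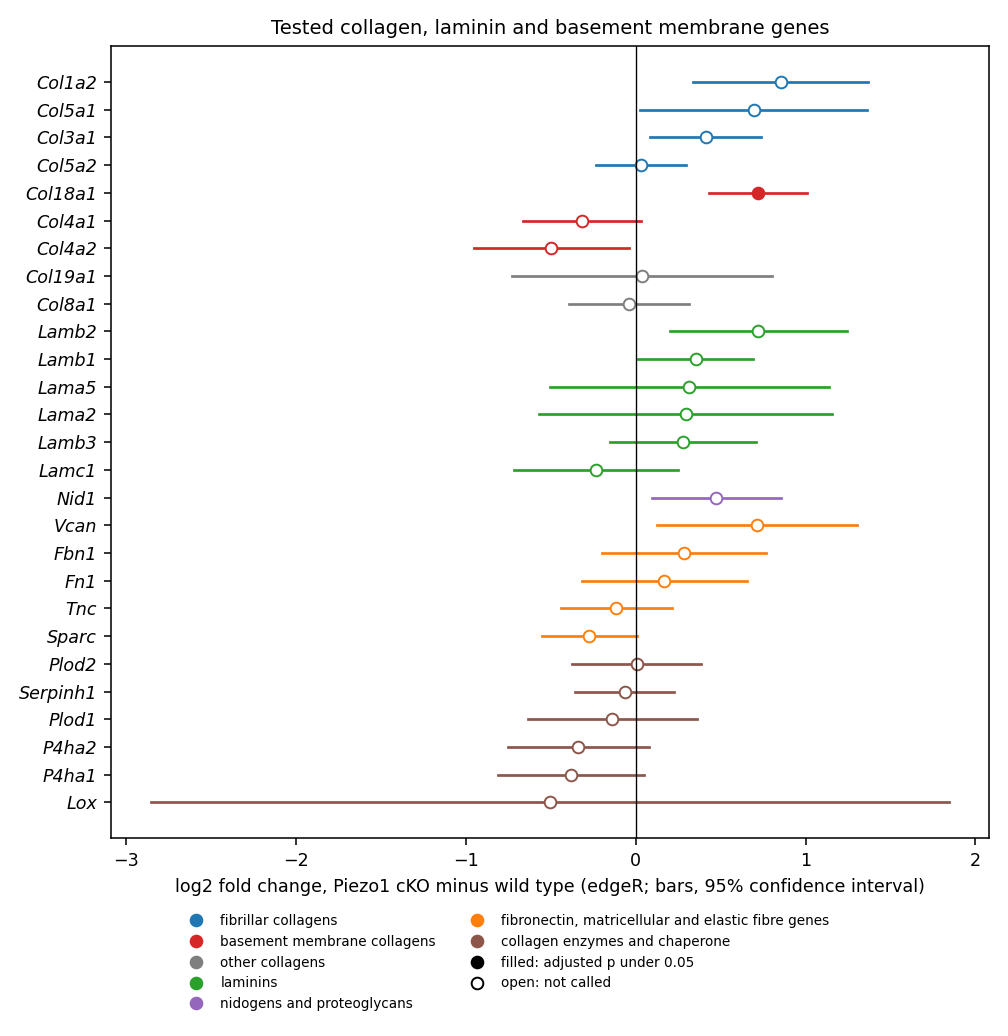
The log2 fold change (cKO minus wild type) of each of the 27 tested matrix genes on the horizontal axis, with its 95% interval from edgeR, sorted into the 7 groups of genes, n = 3 libraries per group. *Col18a1* is the only called gene, the 4 fibrillar collagens and 5 of 6 laminins have estimates above 0, and 5 of 6 enzyme and chaperone genes have estimates below 0, *Lox* (which crossed 0 in limma-voom) with the widest interval and *Serpinh1* crossing 0 with total counts and with cyclic loess.

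Among the 8 basement membrane collagens, 3 could be tested, and their estimates lay on both sides of 0. *Col18a1* stood at 145, 115 and 156 CPM in wild type and at 243, 217 and 224 CPM in cKO (101, 103 and 132 counts against 192, 164 and 169). Every cKO library was above every wild type library. Mean levels were 138.7 ± 21.3 CPM in wild type and 228 ± 13.8 CPM in cKO (SD, n = 3 per group), a 1.65-fold difference (log2 fold change 0.72, SE 0.15, 95% interval 0.43 to 1.01, edgeR adjusted p = 0.00338). DESeq2 called it as well (log2 fold change 0.71, adjusted p = 0.0208), and the two-sided exact permutation test of the levels gave p = 0.1, the smallest possible with 3 libraries against 3. Without cKO 2 the estimate was 0.76 but the edgeR adjusted p was 0.0619.

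*Col4a1* and *Col4a2* encode the α1 and α2 chains of the main type IV collagen trimer. Both lie on chromosome 8, *Col4a1* from 11198423 to 11312826 on the minus strand and *Col4a2* from 11312805 to 11449287 on the plus strand, so that they start head to head with an overlap of 22 bases. *Col4a1* had levels of 111, 146 and 166 CPM in wild type and 149.6, 107 and 84.8 CPM in cKO, and the groups overlapped. *Col4a2* had 51.8, 55.8 and 68.5 CPM against 52.0, 40.9 and 31.8 CPM, with overlap only between wild type 1 and cKO 1. Both estimates lay below 0 without a call, at −0.32 (SE 0.17, 95% interval −0.66 to 0.03, edgeR adjusted p = 0.472) for *Col4a1* and −0.50 (SE 0.23, 95% interval −0.96 to −0.04, edgeR adjusted p = 0.370) for *Col4a2*. In both genes cKO 3 was the lowest library and wild type 3 the highest. The summed level of the basement membrane collagens, 311, 318 and 394 CPM in wild type and 446, 371 and 342 CPM in cKO, had a ratio of 1.13 that became 0.783 without *Col18a1*.

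**Figure D2:**
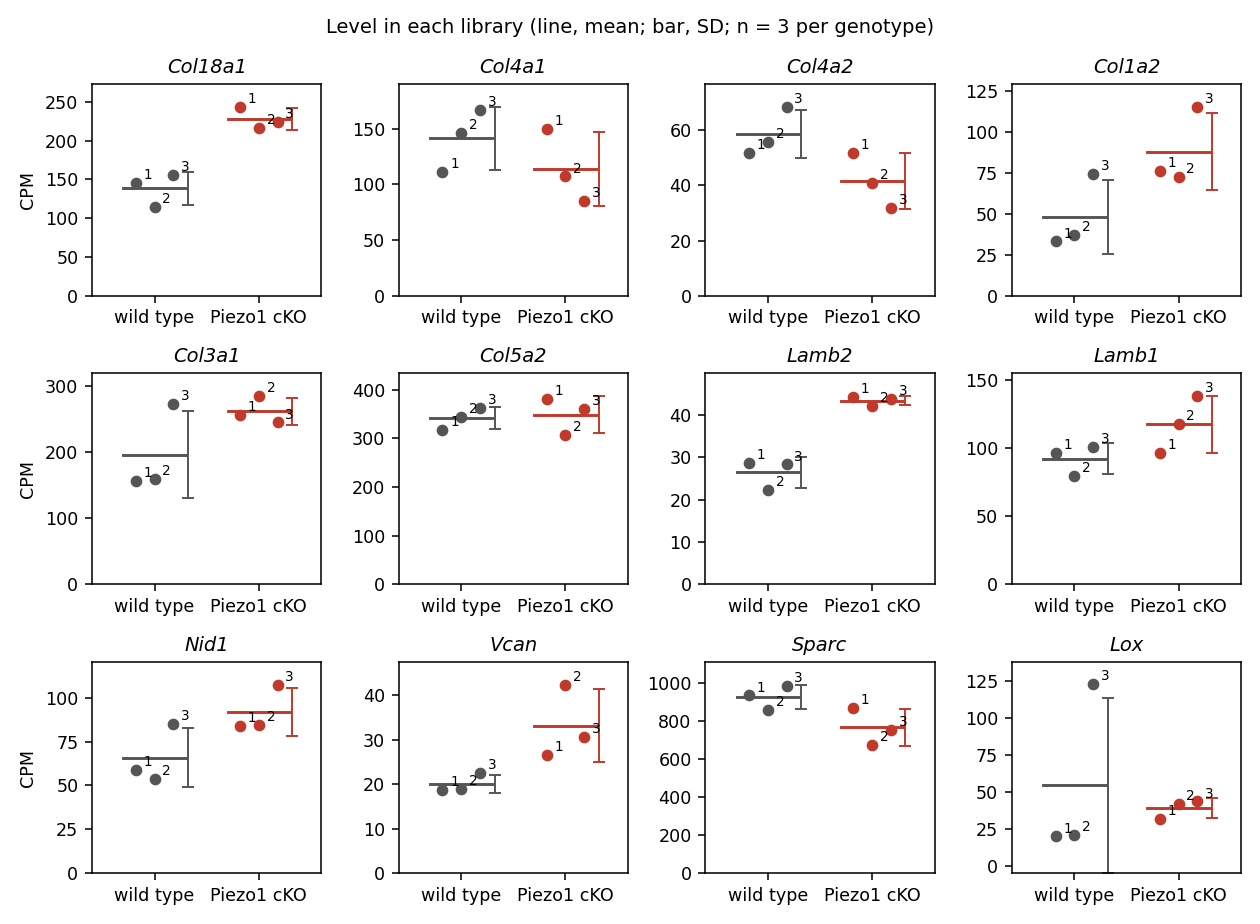
CPM (vertical axes, each starting near 0) of selected matrix genes in each of the 3 wild type and 3 cKO libraries, with the mean and SD of each group. *Col18a1*, *Lamb2* and *Vcan* do not overlap between the groups, whereas for *Lox* the point of wild type 3 lies far above all others.

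The 4 tested fibrillar collagens of 11 all had estimates above 0, with a median log2 fold change of 0.55, but none was called by DESeq2 or by edgeR as run here with its filter of low counts. *Col1a2*, the α2 chain of type I collagen, stood at 33.1, 36.8 and 74.4 CPM in wild type and 76.0, 72.6 and 115 CPM in cKO. The groups overlapped only because wild type 3 lay just above cKO 2. Its log2 fold change was the highest of the tested members, 0.85 (SE 0.25, 95% interval 0.34 to 1.37, 1.81-fold, edgeR adjusted p = 0.125). *Col3a1*, the single chain of type III collagen, had 157, 159.5 and 273 CPM in wild type and 256, 285 and 245 CPM in cKO. Wild type 3 was again at the level of the cKO libraries, and the log2 fold change was 0.41 (SE 0.16, edgeR adjusted p = 0.265). *Col1a2* did pass in edgeR with no filter (adjusted p = 0.00758) and with at least 10 counts required in every library (adjusted p = 0.0334). Without wild type 3 both genes were called, *Col1a2* at 1.32 (edgeR adjusted p = 0.000555) and *Col3a1* at 0.73 (edgeR adjusted p = 0.00477). *Col1a2* fell short without cKO 3 (0.61, edgeR adjusted p = 0.464) and stood at 0.67 without wild type 1 or wild type 2 (edgeR adjusted p = 0.244 and 0.135). *Col3a1* stood at 0.28 without either of these (edgeR adjusted p = 0.527 and 0.592).

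Type V collagen is incorporated into type I fibrils, and no tested chain of it was called by edgeR. *Col5a3*, which missed the filter, had 12 counts in wild type and 33 in cKO, higher without overlap, and is given below with the untested members. *Col5a2*, the fibrillar collagen with the most counts, had 318, 344 and 362 CPM in wild type and 380.2, 306 and 360.4 CPM in cKO, with a log2 fold change of 0.03 whose 95% interval ran from −0.23 to 0.30 (edgeR adjusted p = 0.958). The partner chain *Col5a1*, named after its values were seen, had 15, 11 and 11 counts in wild type and 17, 21 and 19 in cKO (log2 fold change 0.69, SE 0.34, edgeR adjusted p = 0.396). *Col1a1*, the α1 chain of type I collagen and likewise named after its values were seen, had too few counts for the test, 1, 7 and 17 in wild type and 8, 3 and 2 in cKO. Its totals of 25 and 13 counts ran opposite to the 119 and 202 counts of *Col1a2*, its partner in the type I trimer, but 17 of the 25 wild type counts were in wild type 3, and the other wild type libraries lay within the range of the cKO libraries or below it. In wild type 3 the level was 4.34 times the mean of wild type 1 and 2 for *Col1a1*, 2.13 times for *Col1a2* and 1.72 times for *Col3a1*. Summed fibrillar collagen stood at 539, 574 and 759 CPM in wild type and 759, 719.8 and 769.8 CPM in cKO, a ratio of 1.20.

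Of the 21 remaining collagens, 2 could be tested. *Col8a1*, a short-chain network collagen, was even across libraries, with 87.7, 82.5 and 86.2 CPM in wild type and 81.1, 79.2 and 88.8 CPM in cKO (log2 fold change −0.04, 95% interval −0.39 to 0.31, edgeR adjusted p = 0.959). The fibril-associated collagen *Col19a1* had 13, 12 and 10 counts against 8, 12 and 14 (log2 fold change 0.04, SE 0.39, edgeR adjusted p = 0.983), which leaves a wide interval of −0.73 to 0.80. *Col7a1*, the anchoring fibril collagen, missed the filter with 9, 7 and 9 counts in wild type and 24, 17 and 5 in cKO. Only cKO 3 was low within that group. *Col17a1*, a transmembrane collagen of epithelial attachment named after its values were seen, had 5, 3 and 6 counts in wild type and 0, 0 and 1 in cKO, at or under the 3-count floor in every cKO library. *Col26a1*, also named after its values were seen, had 1, 2 and 1 counts in wild type and 5, 5 and 6 in cKO. In CPM, *Col16a1* was lower without overlap, with 6, 6 and 12 counts in wild type and 5, 1 and 5 in cKO. *Col12a1* was higher without overlap in CPM, with 2, 2 and 3 counts against 5, 7 and 3. Both were likewise named after their values were seen, and both missed the filter.

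The laminins had 6 tested members of 11, with 5 estimates above 0 and a median log2 fold change of 0.31. *Lamb2*, the β2 chain of synaptic and vascular laminins, is on chromosome 9 from 108479736 to 108490530 on the plus strand. It had 28.8, 22.3 and 28.3 CPM in wild type and 44.4, 42.3 and 43.7 CPM in cKO, so the groups were well apart and the cKO libraries nearly equal. The log2 fold change of 0.72 (SE 0.26, 95% interval 0.20 to 1.24) matched that of *Col18a1* in size, but with 20 to 35 counts per library the edgeR adjusted p was 0.191. *Lamb1*, the β1 chain of the laminins most common in basement membranes, had 96.4, 79.2 and 100.4 CPM against 96.3, 118 and 138 CPM (log2 fold change 0.35, SE 0.17, edgeR adjusted p = 0.395). *Lamb3*, the β3 chain of epithelial laminin, had 41, 39 and 49 counts against 38, 63 and 47 (log2 fold change 0.28, SE 0.22, edgeR adjusted p = 0.660).

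*Lamc1* encodes the γ1 chain with which the β1 and β2 chains assemble, and it was the tested laminin with an estimate below 0. Its levels were 48.9, 39.0 and 57.9 CPM in wild type and 53.2, 39.6 and 30.5 CPM in cKO (log2 fold change −0.23, SE 0.24, 95% interval −0.71 to 0.25, edgeR adjusted p = 0.774). The 2 tested α chains, *Lama2* and *Lama5*, named after their values were seen, had 5 to 17 counts per library and estimates of 0.29 (SE 0.43) and 0.32 (SE 0.41) with no call (edgeR adjusted p = 0.861 and 0.838). *Lama2* is the α chain of adult muscle basement membrane. The summed laminin level was 265, 221 and 283 CPM in wild type and 280.1, 325 and 305 CPM in cKO, a ratio of 1.18.

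Of the linkers, only *Nid1* could be tested. Nidogen-1 joins the laminin and type IV collagen networks, and its gene, on chromosome 13 from 13437551 to 13512269, overlaps an annotated antisense gene. It had 59.0, 53.5 and 85.0 CPM in wild type and 83.7, 84.5 and 107 CPM in cKO. Wild type 3 again reached the cKO range. The log2 fold change was 0.48 (SE 0.19, edgeR adjusted p = 0.256). *Agrn*, for agrin, had 7, 6 and 9 counts against 6, 11 and 9, and *Hspg2*, for perlecan, had 1, 12 and 6 against 4, 8 and 2. Both missed the filter, and neither was called in a fit with no filter (edgeR adjusted p = 0.832 for *Agrn* and 0.861 for *Hspg2*).

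**Figure D3:**
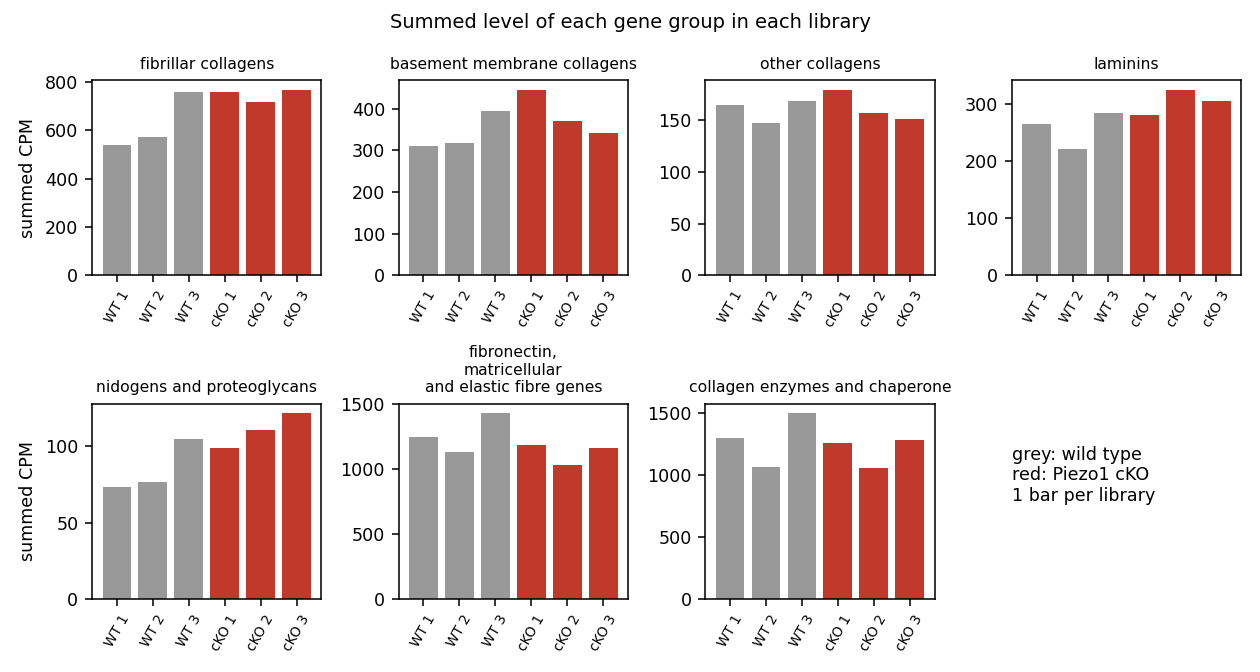
Summed CPM (vertical axes) of each of the 7 groups of matrix genes, with a bar for each library, wild type beside cKO (n = 3 libraries per group). All 7 sums overlap between the groups, and wild type 3 has the highest wild type sum in each of them.

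*Sparc* encodes the collagen-binding glycoprotein osteonectin and had the second most counts of the set. Its levels were 936, 859 and 987 CPM in wild type and 872, 674 and 757 CPM in cKO, with means of 927 ± 64.6 and 767 ± 99.7 CPM (SD, n = 3 each). Only cKO 1 reached the wild type range, and the log2 fold change of −0.27 (SE 0.14) was not called (edgeR adjusted p = 0.438). *Vcan*, for the large hyaluronan-binding proteoglycan versican, had 18.7, 19.0 and 22.4 CPM in wild type and 26.6, 42.3 and 30.5 CPM in cKO. The groups did not overlap, and the log2 fold change was 0.71 (SE 0.30, edgeR adjusted p = 0.281). *Fn1*, for fibronectin, had 92, 61 and 127 counts against 85, 109 and 105 (log2 fold change 0.17, SE 0.23, edgeR adjusted p = 0.848). *Tnc*, for tenascin-C, had 79, 126 and 164 counts against 112, 86 and 121 (log2 fold change −0.12, SE 0.16, edgeR adjusted p = 0.852). The spread of *Fn1* and *Tnc* among wild type libraries was wider than the difference between the group means. *Postn*, for periostin, named after its values were seen, missed the filter with 6, 3 and 35 counts in wild type and 2, 9 and 10 in cKO, so that wild type 3 alone held more than the other libraries together.

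The enzymes and the chaperone had 6 tested members of 8, of which 5 had edgeR estimates below 0 (*Lox* crossed 0 with limma-voom, and *Serpinh1* with total counts and with cyclic loess), with a median log2 fold change of −0.24 and no call. *Serpinh1* had the most counts of the whole set, with 1048, 799 and 1091 CPM in wild type and 994, 788 and 1024 CPM in cKO. Its log2 fold change was −0.06 with a 95% interval of −0.36 to 0.23 (edgeR adjusted p = 0.919). *Plod2*, the lysyl hydroxylase that acts on collagen telopeptides, had 52, 61 and 59 counts against 50, 61 and 52 (log2 fold change 0.00, 95% interval −0.38 to 0.39, edgeR adjusted p = 0.994). The catalytic prolyl 4-hydroxylase subunits had estimates on both sides of 0 and none was called. *P4ha2* had 54.6, 64.7 and 83.8 CPM in wild type and 57.0, 58.1 and 46.4 CPM in cKO (log2 fold change −0.34, SE 0.21, edgeR adjusted p = 0.538). *P4ha1*, named after its values were seen, had 57.5, 68.0 and 68.5 CPM against 57.0, 34.3 and 58.3 CPM (log2 fold change −0.38, SE 0.22, edgeR adjusted p = 0.493). *P4ha3*, which the symbol rule did not take in and which was named after its values were seen, had an estimate of 0.51 with 59 counts in wild type and 79 in cKO. The lysyl oxidase *Lox*, also named after its values were seen, had 14, 19 and 104 counts in wild type and 25, 32 and 33 in cKO. Wild type 3 was 5.94 times the mean of the other wild type libraries, and the log2 fold change of −0.51 had a 95% interval of −2.86 to 1.85 (edgeR adjusted p = 0.899). With limma-voom the *Lox* estimate was 0.01, so its direction was not settled.

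**Figure D4:**
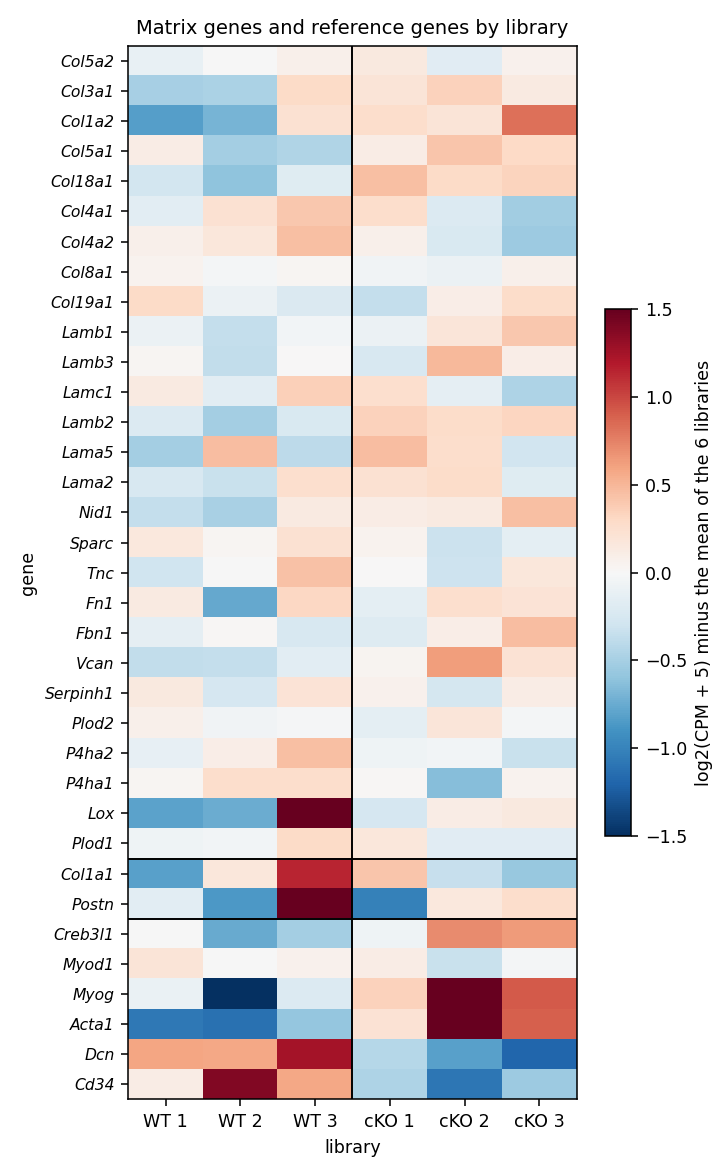
Log2(CPM + 5) of each tested matrix gene (rows) in each library (columns), minus the gene's mean over the 6 libraries, with colours limited to ±1.5. Further rows show the untested members *Col1a1* and *Postn*, and *Dcn*, *Cd34*, *Myog*, *Acta1*, *Myod1* and *Creb3l1* from outside the set. The column of wild type 3 is above the gene's mean for *Lox*, *Tnc* and *Serpinh1* among others, and *Col18a1*, *Lamb2* and *Vcan* separate the columns by genotype label.

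The 43 members left out of the test are mostly genes that these cells barely counted. *Col24a1*, *Col6a4* and *Lama3* were at 0 in every library, which allows a level of up to 3.35 to 4.31 CPM. Another 24 had from 1 to 10 counts over all libraries, 7 had from 11 to 30 and 9 had more than 30, with *Col7a1* highest at 71. In a fit with no filter on low counts, 0 of the 43 were called, where 129 of 19247 genes were. Genes at 0 in every library were not in that fit. *Col17a1* and *Col5a3* came nearest, with edgeR adjusted p of 0.181 and 0.209. *Col5a3*, the third type V chain and named after its values were seen, had 4, 1 and 7 counts in wild type and 8, 15 and 10 in cKO.

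Genes of the same pathway outside the symbol rule gave 1 call by edgeR. Among other collagen processing genes, 21 of the 31 listed could be tested, 1 was called higher (4.76%, against 0.784% of all genes) and none lower, and their median log2 fold change was 0.05. Their summed level was 3554, 3324 and 3364 CPM in wild type and 3200.4, 3032 and 3254 CPM in cKO, a ratio of 0.926, where the same sum over all genes in the table, also lower without overlap, had 0.952. The called gene was *Creb3l1*, for the membrane-bound transcription factor OASIS, which is known to activate type I collagen genes and secretory pathway genes. It had 37.4, 20.1 and 24.8 CPM in wild type and 35.5, 64.7 and 61.0 CPM in cKO, with cKO 1 inside the wild type range (log2 fold change 0.99, SE 0.26, edgeR adjusted p = 0.0434). It was not called by limma-voom (adjusted p = 0.110), and DESeq2 gave it no adjusted p. The endoplasmic reticulum chaperone *Hspa5* and the prolyl 4-hydroxylase β subunit *P4hb* had estimates of −0.26 and −0.27 (edgeR adjusted p = 0.466 and 0.436).

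Among matrix proteases and their inhibitors, 8 of 24 were tested and 0 were called by edgeR, with 1 higher and 1 lower at an unadjusted p under 0.05 (25%, against 11.9% of all genes) and a median log2 fold change of 0.22. The most counted, *Ctsb* (cathepsin B) and *Timp1* (a metalloproteinase inhibitor), both had log2 fold changes of −0.05. Of the collagen and laminin receptors, 12 of 20 were tested and 0 were called by edgeR, with 2 higher and 1 lower at an unadjusted p under 0.05 (25%, against the same 11.9%) and a median of 0.10. The levels of 4 receptors did not overlap (33.3%, against 16.5% of all genes), 2 higher and 2 lower. The integrin β1 chain *Itgb1* had −0.19 (edgeR adjusted p = 0.620) and the laminin-binding α7 chain *Itga7* had 0.04 (edgeR adjusted p = 0.949). *Itga6*, the α6 laminin-binding chain, and the syndecan *Sdc4*, both named after their values were seen, had estimates of 1.02 and −0.53 (edgeR adjusted p = 0.0758 and 0.0609). Limma-voom called *Itga6* (adjusted p = 0.0450) and did not call *Sdc4* (adjusted p = 0.142). Of 36 other matrix glycoproteins, 16 were tested and 0 were called by edgeR, with 1 higher and 2 lower at an unadjusted p under 0.05 (18.8%) and a median of 0.13. *Thbs1* (thrombospondin-1) and *Ltbp1* (a latent TGF-β binding protein) both had 0.03. Of the genes in these 3 lists that DESeq2 gave an adjusted p, it called none.

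Other cell type markers stood as follows beside these values. Markers of differentiating muscle were higher in the libraries labelled cKO in sum, at 429, 316 and 387 CPM in wild type and 578, 1327 and 809.6 CPM in cKO. Their 5 tested genes gave 0 edgeR calls, with 2 higher and 0 lower at an unadjusted p under 0.05 (40%, against 11.9% of all genes). However, 4 of the 5 (80%) had higher levels without overlap in cKO, against 8.2% of all genes. The muscle actin *Acta1* had 66.2, 63.6 and 94.5 CPM against 169, 466 and 272 CPM (log2 fold change 2.01, edgeR adjusted p = 0.241, DESeq2 adjusted p = 0.00485), whereas troponin *Tnnt2* had an estimate of 0.16 (edgeR adjusted p = 0.703). The other 3, named after their values were seen, were the differentiation factor *Myog* (40, 3 and 45 counts against 63, 203 and 92), the fusion protein gene *Mymk* (32, 8 and 20 against 55, 116 and 54) and the cardiac actin *Actc1* (6, 0 and 0 against 11, 96 and 21). Limma-voom called these 3 and *Acta1* (adjusted p = 0.0100, 0.00267, 0.00264 and 0.000321 for *Myog*, *Mymk*, *Actc1* and *Acta1*). Over all genes tested, limma-voom called 72 of 8551. Pericyte and smooth muscle markers summed to 48.9, 35.7 and 52.0 CPM in wild type and 62.1, 74.0 and 98.1 CPM in cKO, higher without overlap (ratio 1.71). They were led in counts by *Cspg4* (28, 25 and 25 counts against 39, 32 and 54) and *Notch3* (3, 4 and 7 against 6, 12 and 11), with *Myh11* at 0 in all but cKO 2. Named after their values were seen, *Rgs5* had 0, 0 and 1 counts against 2, 4 and 6, while *Pdgfrb* ran the other way, with 16 counts in wild type and 12 in cKO. Tenocyte markers, of cells that also make fibrillar collagen, summed to 239, 147 and 219.6 CPM against 237, 239 and 213 CPM. *Scx* made up nearly all of that sum (164, 122 and 182 counts against 176, 170 and 150), *Mkx* had 2, 10 and 3 against 11, 11 and 11, *Tnmd* had 1 count in all and *Thbs4* none. The part of these markers in the matrix results was not tested.

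Endothelial and immune cell markers had few counts. Endothelial markers summed to 14.4, 5.58 and 1.18 CPM in wild type and 5.07, 5.28 and 19.9 CPM in cKO, with *Tek* at 1 to 9 counts, *Kdr* at 0 to 4 and *Tie1* at 0. Immune markers summed to 10.1, 27.9 and 13.0 CPM against 10.1, 14.5 and 10.6 CPM, with *Cd68* at 5 to 13 counts. *Lyz2* was at 0 in 4 of 6 libraries, with 11 counts in wild type 2 and 1 in cKO 1.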

How the data were processed

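The authors reverse transcribed 500 pg of RNA with barcoded oligo-dT primers, amplified cDNA by 12 cycles of PCR, mapped reads to GRCm38 with STAR 2.7.9a, assigned them with featureCounts 2.0.1 and counted unique molecules with UMI-tools 1.1.1 (versions from the submitters' processing notes). The deposited values are these raw counts per gene, with 1 column per library. Settings for strand and for reads that map to several places are not given in the sources used here. Counts of genes that overlap on opposite strands are therefore uncertain. *Col4a1* and *Col4a2* overlap by 22 bases at their starts, whereas counts come from near the 3' ends. *Col4a2* also overlaps an annotated antisense gene, and *Piezo1* overlaps *Ctu2* on the opposite strand. Groups and replicate numbers came from the labels.

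Counts were tested in R 4.3.3 with edgeR 4.0.16 (TMM, filterByExpr with a minimum count of 10, robust quasi-likelihood fit, genotype only) over all 8551 genes that passed, adjusted by Benjamini-Hochberg over these and called at an adjusted p under 0.05. *Piezo1* missed the filter and was kept regardless of it. The study used DESeq2, run here as version 1.42.0 as an alternative beside limma 3.58.1. Scripts were tested on simulated data. Pairs of libraries of a group differed by more than counting noise. Floors and intervals on counts cover counting error only. Gene positions came from GENCODE M21 and promoters from RefSeq, which held 48 of the 70 members.

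Members, gene lists and markers were chosen with earlier results of these data known. Named were members called by edgeR or DESeq2, members with an unadjusted p under 0.05 and levels that did not overlap, the 3 members of each group with the most counts, *Piezo1*, and for each other list its called genes and the 2 with the most counts. Defining cell type markers at or near 0 were also named, after their values were seen. The lists were other collagen processing genes, matrix proteases and inhibitors, collagen and laminin receptors, other matrix glycoproteins and 8 sets of cell type markers, of which 1 is not reported here.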

Additional observations from a re-analysis of the deposited data

How the results depend on the processing

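The count of genes called over the whole table was 67, and became 27 with DESeq2, 129 with no filter, 124 at an adjusted p under 0.1 and 6 to 174 when single libraries were left out (6 without cKO 2, 174 without cKO 1). The higher share of calls was 59.7%, and was 73.1% with total counts only, 44.4% with DESeq2 and 75.0% with cyclic loess, which was added after seeing the data. Members called numbered 1, and 2 with no filter, 2 with at least 10 counts in every library, and 0 to 3 when single libraries were left out (0 without cKO 2; 2 without cKO 1; 3 without wild type 3). Replicate numbers are shared by name only. An edgeR fit with replicate block called 46 genes, 36 of them shared with the 67, and 2 members (*Col18a1* and *Col1a2*). In that fit *Creb3l1* was not called (adjusted p = 0.136) and *Acta1* was called (adjusted p = 0.00418). Same-number libraries correlated at −0.143, −0.203 and 0.0121 in their deviations, and no library correlated best with its own number.

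*Col1a2* was called at 0.85 with no filter (adjusted p = 0.00758), 0.87 with at least 10 counts in every library (adjusted p = 0.0334), 0.89 with the block (adjusted p = 0.0380) and 0.94 without cKO 1 (adjusted p = 0.0162), all in edgeR. Log2 fold changes crossed 0 for *Lox* with limma-voom (0.012), *Col8a1* with total counts (0.035), *Col19a1* thinned (−0.19), with cyclic loess (−0.085) and over left-out libraries (−0.16 to 0.25), *Serpinh1* with total counts (0.0094), cyclic loess (0.16) and left-out libraries (−0.19 to 0.044), *Plod2* with DESeq2 (−0.011), no filter (−0.0017), cyclic loess (−0.033) and left-out libraries (−0.097 to 0.077), and over left-out libraries for *Col5a2* (−0.039 to 0.11), *Tnc* (−0.26 to 0.12) and *Fn1* (−0.12 to 0.41). Summed-level ratios moved from 1.13 to 0.783 for basement membrane collagens without *Col18a1*, from 1.30 to 0.971 for linkers without *Nid1* and from 0.886 to 1.04 for the fibronectin group without *Sparc*. Of 312 alternative values of 20 members, 283 kept direction and side of the threshold. The cause was not tested.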

Other observations

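The spread among replicates of the matrix genes was close to that of all genes, with a median coefficient of variation of 16.1% in wild type and 16.7% in cKO over the tested members and 15.7% and 14.7% over all genes tested. Beside *Lox*, *Col1a1*, *Col1a2* and *Col3a1*, the level in wild type 3 was 6.90 times the mean of wild type 1 and 2 for *Postn*, 1.52 times for *Tnc*, 1.51 times for *Nid1* and 1.5 times for *Fn1*, genes chosen after their values were seen.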
